A study of Mus musculus with 6 samples.

Results

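Spen and Rai1 are nuclear proteins whose messenger RNAs each hold 1 very long coding exon. In polyadenylated RNA of whole mouse brain, segments enriched by an antibody against N6-methyladenosine (m6A) lined up along a few kilobases of each gene. The members were 114 peaks, taken as every peak whose summit lay in 1 of 2 windows on mm9: chr4:141023000-141095000 for Spen and chr11:59918000-60013000 for Rai1. Peaks that shared 1 base or more were merged, which gave 26 regions in the Spen window and 14 in the Rai1 window, 40 of the 43377 regions of the whole series. The windows had been chosen on the peak lists themselves, because runs of neighbouring peaks had been seen there. The number, crowding, height and recurrence of these regions are therefore a description and carry no test.

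The series had 6 libraries, 3 of RNA pulled down with the m6A antibody (m6A IP 1, 2 and 3) and 3 of input, all from whole brain, with a single condition. Their labels name no genotype, strain, age or treatment, and the run names in the headers carry the letters ctl, which no source explains. The title of the series concerns oligodendrocytes, but the RNA came from the whole organ. Peak lists hold no expression levels, so markers of brain cell types were not checked. Each peak list compared 1 IP with 1 input. After duplicate removal, the IP libraries kept 5676427 of 16764956 tags in m6A IP 1, 6493926 of 18489297 in m6A IP 2 and 6327958 of 17333767 in m6A IP 3. The 3 lists held 32858, 32671 and 24686 peaks, of which 25, 23 and 26 lay in the Spen window and 15, 12 and 13 in the Rai1 window. Although m6A IP 3 had the shortest list, it had the most peaks in the Spen window. Those peaks covered the fewest bases, 3558 against 4563 in m6A IP 1 and 4369 in m6A IP 2. In some merged regions m6A IP 3 had more peaks than the other lists, so its peak count is not a count of regions.

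As background, m6A is written on messenger RNA by a nuclear methyltransferase with the catalytic subunit Mettl3, within short sequence contexts of which GGACT is the best known. In mammalian messenger RNA it lies mostly in long internal exons and around stop codons, and it marks RNA for readers that affect export, translation and decay. Spen is a large RNA-binding corepressor, known from Notch target repression and from Xist-dependent silencing of the X chromosome. Rai1 is a chromatin-binding regulator whose dosage matters in the brain; loss of a human copy causes Smith-Magenis syndrome.

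The name giant exon was checked against the GENCODE annotation, which is on GRCm38 and not on the build of the peaks. Only lengths and letters were taken from it, and no position was carried between builds. In the transcript with the longest coding sequence, exon 12 of Spen had 8020 bases, all coding, or 73.4% of the coding sequence. Exon 3 of Rai1 had 5527 bases, of which 5511 were coding, or 97.2% of the coding sequence. Among the 2930 genes whose longest coding exon had at least 1000 coding bases, 1 exon per gene, Spen ranked 15 and Rai1 48 by coding length, and the median was 1466 bases.

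The letters GGACT were searched on the transcribed strand of these exons. Exon 12 of Spen held 8, or 0.998 per kb, and exon 3 of Rai1 held 10, or 1.81 per kb. They did not run along the whole exons. In Spen the first began at base 82 and the last at base 3762 of the 8020 coding bases. In Rai1 the first began at base 144 and the last at base 4223 of the 5511 coding bases. Over the 2930 exons the median was 0.892 per kb, with quartiles of 0.413 and 1.61. Cut into stretches of 150 bases, 7 of 53 stretches (13.2%) held the word in Spen and 8 of 36 (22.2%) in Rai1, against 14.1% of 33740 stretches over all these exons. Counting GGACA and also GGACC with GGACT, Spen had 34 (4.24 per kb) and Rai1 37 (6.71 per kb), against a median of 3.65 per kb. GC content was 58.6% and 61.7%, against a median of 52.2%, and its part in the word counts was not tested. The 150 coding bases with the most GGACT, the first such stretch where several tied, are printed from the GENCODE transcripts to show the sequence that these exons offer, with GGACT in capitals. They are bases 1 to 150 of the coding part of Spen exon 12 (transcribed from the minus strand) and bases 1641 to 1790 of the coding part of Rai1 exon 3 (plus strand), each with 2 copies. Whether a peak lies over them was not tested.
Spen: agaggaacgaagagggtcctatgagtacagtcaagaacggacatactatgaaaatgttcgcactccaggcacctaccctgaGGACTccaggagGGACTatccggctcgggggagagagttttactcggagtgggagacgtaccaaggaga
Rai1: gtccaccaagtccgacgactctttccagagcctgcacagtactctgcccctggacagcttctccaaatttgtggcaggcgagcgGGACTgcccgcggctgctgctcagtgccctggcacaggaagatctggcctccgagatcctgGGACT

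Of the 26 Spen regions, 17 were found in all 3 lists, 5 in 2 lists and 4 in 1 list. Of the 14 Rai1 regions, 9 were found in all 3 lists, 3 in 2 lists and 2 in 1 list. These shares, 65.4% and 64.3%, stand beside 38.6% over all 43377 regions of the series, and since the windows were chosen on these lists nothing is read from the difference. With peaks of a fold of at least 4, the recurrent regions numbered 11 in Spen and 6 in Rai1. With a −log10 q of at least 10 there were 2 in each.

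**Figure D1:**
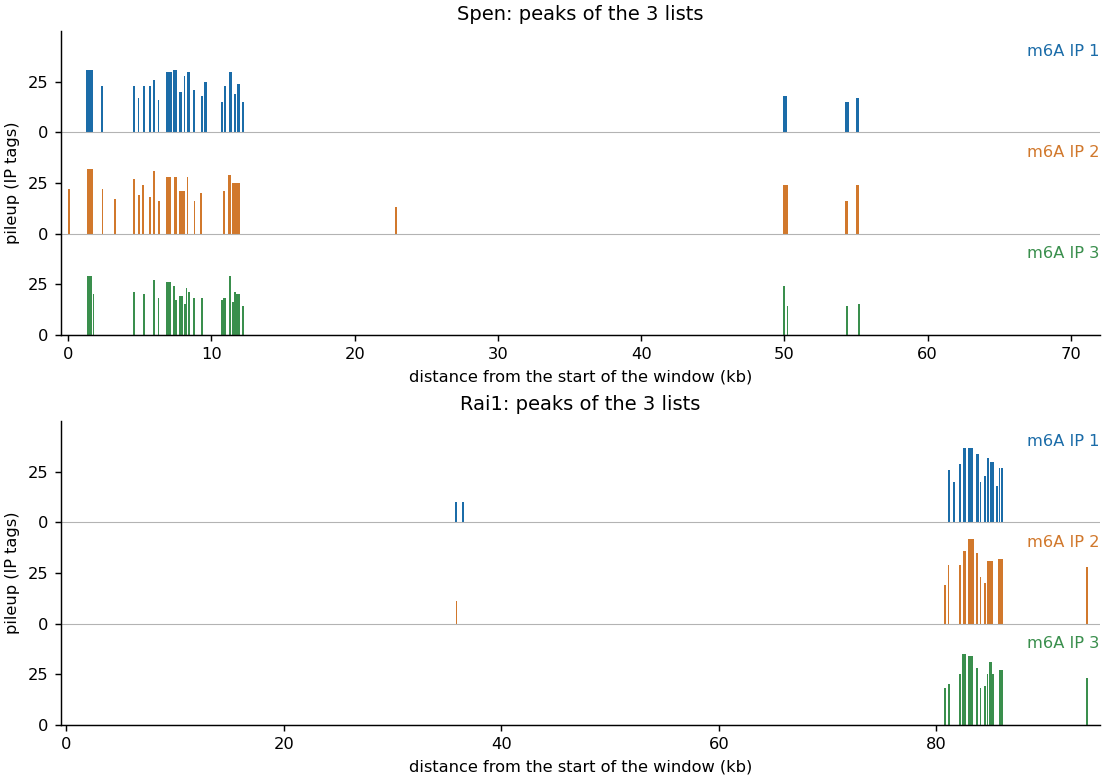
Peaks of m6A IP 1, 2 and 3 in the Spen window (top) and the Rai1 window (bottom). The horizontal axis is the distance from the start of the window in kb, each bar spans a peak (the narrowest drawn wider than they are) and its height is the pileup in IP tags, with each list on its own baseline. In Spen, 51.4% of the peaks fell in 6.80% of the window, and in Rai1 82.5% fell in 5.36% of it.

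In Spen, 10 recurrent regions followed each other within 4898 bases, chr4:141027504-141032401, with no gap over 1000 bases. This run held 38 of the 74 Spen peaks (51.4%) in 6.80% of the window. A further 3 recurrent regions lay beyond a gap of more than 1000 bases, at chr4:141033824-141035025. When gaps of up to 2000 bases were allowed, both joined into 13 regions over 7522 bases. In Rai1, all 9 recurrent regions formed a single run of 5096 bases, chr11:59999054-60004149. It held 33 of the 40 Rai1 peaks (82.5%) in 5.36% of the window.

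The Spen run of 4898 bases was shorter than the 8020 bases of exon 12, and the Rai1 run of 5096 bases stands beside the 5527 bases of exon 3. Chains were also built from regions of any list, a choice made after seeing the data. With gaps of up to 1000 bases, the Spen chain held 18 regions (13 in all 3 lists, 4 in 2 lists and 1 in 1 list) over 7753 bases, chr4:141027504-141035256. This chain, but not the run, was close in length to exon 12. The Rai1 chain held 11 regions (9, 1 and 1) over 5425 bases, chr11:59998725-60004149. Of the 8308 such chains with 2 or more regions, 4 held at least as many regions as Spen and 12 at least as many as Rai1, each count including the gene itself. Lengths alone do not place the regions in the exons, and their place was not tested. Peaks covered 52.0% of the Spen chain and 61.9% of the Rai1 chain.

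Both windows also held regions outside these chains, among them the highest Spen region, and long stretches with no peak. The widest stretch without a peak in any list was 26986 bases in Spen, chr4:141045900-141072885, and 44254 bases in Rai1, chr11:59954471-59998724. The Rai1 window had no recurrent region outside its run. The Spen window had 4 besides the 13 of the crowded stretch, 1 on its low-coordinate side and 3 on its high-coordinate side. Spen is transcribed from the minus strand, so low coordinates are nearer its 3′ end.

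Within the runs, the distance between neighbouring regions was taken between their summits, 1 per region and list, averaged over the lists. The median distance in Spen was 516 bases, with a range of 316 to 787, and in single lists it was 544, 480 and 491 bases in m6A IP 1, 2 and 3. In Rai1 it was 454 bases, with a range of 355 to 1112, and 537, 438.5 and 456 bases in the 3 lists. The ranges of the genes overlapped, and the lists of a gene differed by about as much as the genes did. The uncovered gap between regions had a median of 234 bases in Spen and 166.5 in Rai1, and the narrowest were 26 and 60 bases. At a fold of at least 4 the median distance in Rai1 was 686 bases.

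The lists placed their summits closer together in Spen than in Rai1. In 12 of the 17 recurrent Spen regions the summits of the 3 lists lay within 50 bases of each other, as they did in 4 of the 9 of Rai1. Over all recurrent regions of the series this held for 70.8%. The median range of the 3 summits was 19 bases in Spen and 59 bases in Rai1, against 22 bases over the series. Rai1 regions were longer, with a median of 301 bases against 236 in Spen and 185 over the series. At chr4:141024277-141024824 the 3 Spen summits were 141024429, 141024427 and 141024428. At chr4:141031192-141031501 they were 141031296, 141031293 and 141031290, and at chr11:60001998-60002090 in Rai1 they were 60002062, 60002057 and 60002063. The widest ranges were 344 bases in Spen, at chr4:141034437-141035025, and 276 bases in Rai1, at chr11:60002621-60003263. In both of these, 1 list had 1 peak where the others had 2 and 3.

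Pileup, the number of IP tags over the highest base of a peak, was moderate in both genes. The 17 recurrent Spen regions had a median of 23, 24 and 21 tags in m6A IP 1, 2 and 3. The 9 of Rai1 had 29, 31 and 27 tags, and all recurrent regions of the series 25, 25 and 22 tags. The Rai1 median was above the Spen median in each list, by 6.33 ± 0.577 tags (SD, n = 3), and the medians did not overlap. Single regions did overlap, with mean pileups of 15 to 30.7 tags in Spen and 20.3 to 37.7 in Rai1. The input background moved the same way: its median was 4.58, 5.04 and 4.40 tags in Rai1 and 3.82, 3.92 and 3.52 in Spen. The difference was 0.763, 1.12 and 0.881 tags in m6A IP 1, 2 and 3, or 0.922 ± 0.182 (SD, n = 3). After scaling, 1 input tag counted for 0.763, 0.560 and 0.881 tags in these lists. The differences are thus steps of whole input tags, and their SD also holds the scaling of the libraries. In bulk RNA, more cells with a transcript and more transcript per cell cannot be told apart. The fold, which sets pileup against this background, did not separate the genes. Its median was 5.19, 5.35 and 4.86 in Spen and 5.65, 5.30 and 5.04 in Rai1, a difference of 0.192 ± 0.256 (SD, n = 3).

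The highest Spen region lay outside the run, at chr4:141024277-141024824, with pileups of 31, 32 and 29 tags in m6A IP 1, 2 and 3 and a mean of 30.7 ± 1.53 (SD, n = 3). It was followed by chr4:141034186-141034407 in the group of 3 beyond the gap, with 30, 29 and 29 tags. These regions were nearly level across the lists. Next came a tie at a mean of 28: chr4:141028908-141029030 with 26, 31 and 27 tags, and chr4:141029837-141030218 with 30, 28 and 26 tags. The 95% Poisson interval (exact) around 31 tags runs from 21.1 to 44.0, so the order among these regions is within counting error. The lowest was chr4:141077203-141077477, with 15, 16 and 14 tags.

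Inside the Spen run, heights went up and down from region to region. The first region, chr4:141027504-141027676, had 23, 27 and 21 tags, and the last, chr4:141032220-141032401, had 18, 20 and 18. The lowest of the run, chr4:141029246-141029341, had 16, 16 and 18 tags and lay just beyond a region at 26, 31 and 27. Their input backgrounds were alike, at 3.18 ± 0.206 tags for the lower and 2.95 ± 0.217 for the higher (SD, n = 3). Such a background can be an average over 1000 bases or more, which these neighbours largely share. Input under each region was not compared. Pileup in the run spanned means of 16.7 to 28 tags.

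**Figure D2:**
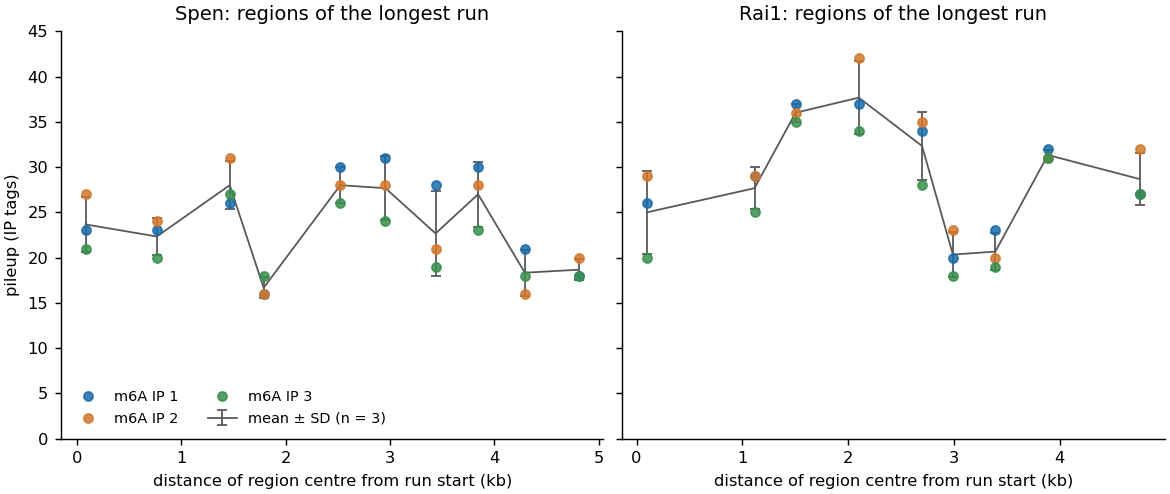
Pileup in IP tags of each region of the longest run against the distance of the region's centre from the start of the run in kb, for Spen (left, 10 regions) and Rai1 (right, 9 regions). Points are m6A IP 1, 2 and 3, and the line with bars is their mean ± SD (n = 3). Rai1 shows a high block of 3 neighbouring regions with means of 36, 37.7 and 32.3 tags, then 2 regions near 20 tags, while Spen stays between 16.7 and 28.

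The Rai1 run had a block of high regions followed by a dip. Its 3 highest regions were neighbours. The tallest, chr11:60000896-60001412, had 37, 42 and 34 tags, a mean of 37.7 ± 4.04 (SD, n = 3) that was higher than 88.1% of all recurrent regions. Before it lay chr11:60000363-60000751 with 37, 36 and 35 tags, and after it chr11:60001602-60001902 with 34, 35 and 28. Then came the lowest region, chr11:60001998-60002090, with 20, 23 and 18 tags, and its neighbour chr11:60002396-60002494 with 23, 20 and 19. In each list these were the lowest recurrent regions of Rai1, with fewer tags than any region of the block. The exact Poisson intervals of dip and block nevertheless overlapped in every list. Even for 20 and 42 tags in m6A IP 2, they ran from 12.2 to 30.9 and from 30.3 to 56.8. Overlap of 2 separate intervals does not test their difference. Whether the depth of the dip in a single list exceeds counting error was not tested. The input backgrounds of the dip regions, 5.11 ± 1.01 and 4.89 ± 0.525 tags (SD, n = 3), were close to the Rai1 median. The peak caller can take a background as an average over 1000 or 10000 bases, which neighbouring regions share. Whether input was lower at the dip itself was not tested. Height rose again to 32, 31 and 31 tags at chr11:60002621-60003263. The first region of the run, chr11:59999054-59999248, had 26, 29 and 20 tags, and the last, chr11:60003474-60004149, had 27, 32 and 27.

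No member was at the ceiling of the method. Duplicate removal leaves at most 1 tag per position and strand, hence at most 50 tags of 50 bases over a base on 1 strand. The highest pileup in the windows was 42 tags. Duplicate removal can also lower pileups short of this limit, and its effect on height and fold was not tested. In all 17 recurrent Spen regions and all 9 of Rai1, the exact Poisson intervals of the 3 pileups shared a common range. The variance of the 3 pileups over their mean had a median of 0.25 in Spen and 0.291 in Rai1. Over all recurrent regions of the series it was 0.226. Such a spread is below that of Poisson counts and makes shared intervals likely, so nothing is read from them. The list m6A IP 3 had the lowest pileup, alone or tied, in 13 of the 17 Spen regions and 9 of the 9 Rai1 regions, although it kept more tags than m6A IP 1. This list was also lowest over all recurrent regions of the series, with a median of 22 tags against 25 and 25. The low pileup is thus not particular to these genes.

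The fold over local input, as the authors' peak caller gave it, was near the middle of the series. The median over regions of the mean fold was 5.46 for the 17 recurrent Spen regions and 5.31 for the 9 of Rai1, against 5.13 for all 16757 recurrent regions. No member reached a mean fold of 10, which 724 regions of the series did. A fold of at least 4 in every list was met by 11 of the 17 Spen regions and 6 of the 9 Rai1 regions, beside 48.4% of all recurrent regions. A −log10 q of at least 10 in every list was met by 2 in each gene, beside 12.3% of all recurrent regions. These counts come from the comparison that chose the windows, and nothing is read from them. The mean folds of the recurrent members lay between 3.57 and 7.34.

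The highest Spen fold was in the run, at chr4:141028908-141029030, with 7.13, 7.63 and 7.25 and a mean of 7.34 ± 0.261 (SD, n = 3), the steadiest of the recurrent members by its coefficient of variation of 3.55%. Next was chr4:141077203-141077477 with 4.86, 8.23 and 7.62, the same region that had the lowest pileup, over a background of 2.29, 1.06 and 0.969 tags. Then came chr4:141030315-141030605 with 5.73, 6.91 and 6.12. The lowest was chr4:141033824-141034022 with 4.98, 3.33 and 3.52. By mean fold the region with the fewest IP tags thus came next to the highest, over a low scaled background that is not a count of input tags.

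The Rai1 folds followed the heights only in part. The highest was chr11:60000363-60000751 with 7.89, 4.79 and 7.73, a mean of 6.80 ± 1.75 (SD, n = 3). The last region of the run, chr11:60003474-60004149, had 7.40, 5.46 and 6.19, and chr11:60000896-60001412 had 4.04, 7.61 and 6.48. At the latter the pileups differed little, but the background was 8.40 tags in m6A IP 1 against 4.65 and 4.40 in the other lists. At chr11:60000363-60000751 it was 6.72 tags in m6A IP 2, the list with the low fold, against 3.82 and 3.65. The lowest fold was chr11:60001998-60002090, with 4.07, 3.99 and 2.65. The pair of regions in the dip was lowest by mean fold as well as by pileup.

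**Figure D3:**
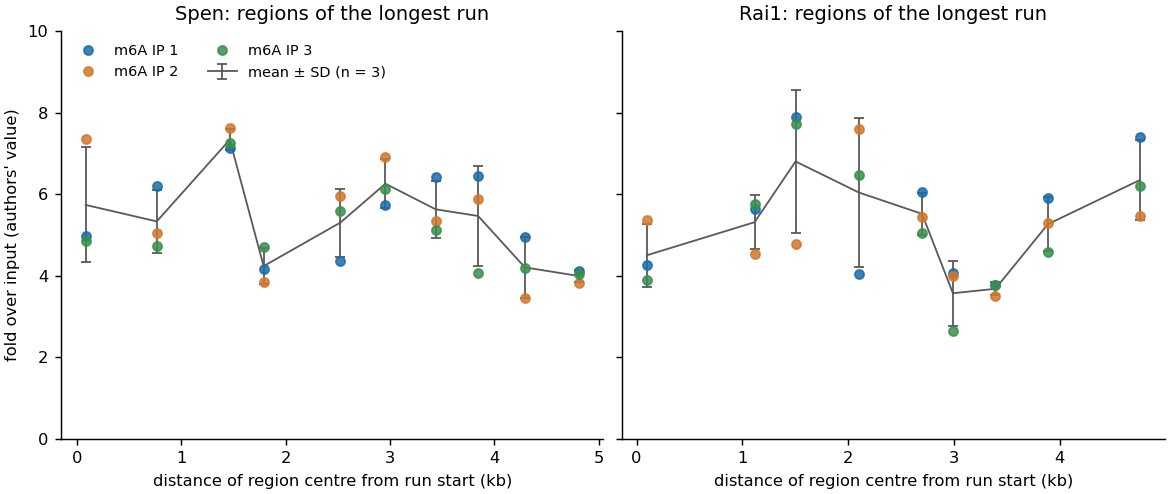
Fold enrichment over input, the authors' value, of the same regions against distance from the start of the run in kb, for Spen (left) and Rai1 (right). Points are m6A IP 1, 2 and 3, and the line with bars is their mean ± SD (n = 3). The lists are close at the Spen region with a fold of 7.34 ± 0.261 and far apart at the Rai1 regions with 6.80 ± 1.75 and 6.04 ± 1.82.

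Height was shared between lists more closely than fold. Across the 17 recurrent Spen regions, Spearman's rho of pileup was 0.810 for m6A IP 1 and 2, 0.800 for 1 and 3, and 0.895 for 2 and 3. That of fold was 0.0932, 0.0662 and 0.713 in the same order. Across the 9 of Rai1 it was 0.916, 0.962 and 0.912 for pileup, and 0.300, 0.567 and 0.567 for fold. Regions of 1 gene share their transcript and their libraries and are not replicates, so no p is given. The background behind each fold is scaled input, in which 1 input tag counted for 0.763, 0.560 and 0.881 in the 3 lists. It can be an average over 1000 or 10000 bases and so rest on more tags than its size shows. Why fold was shared less than height was not tested. The median coefficient of variation over the 3 lists was 9.45% for pileup and 15.8% for fold in Spen, and 10.1% and 15.4% in Rai1. Over all recurrent regions it was 9.94% and 20.5%.

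The recurrent Spen regions far from the run were weaker in pileup than its highest regions. The region at chr4:141072886-141073215 had 18, 24 and 24 tags, and a pair lay at chr4:141077203-141077477 and chr4:141077988-141078223. The latter had 17, 24 and 15 tags, and its folds of 8.70, 4.14 and 3.54 varied most among the recurrent members, with a coefficient of variation of 51.7%. Its background was 1.07, 5.04 and 3.52 tags, lowest where the fold was highest. In the group of 3 beyond the gap, chr4:141034437-141035025 had 24, 25 and 21 tags. Outside the naming rule, the regions starting at 141029246, 141031192, 141072886 and 141077988 in Spen and at 60002396 and 60002621 in Rai1 were named after their values were seen.

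Among all runs of the series, these had many regions at an ordinary spacing. There were 68 runs of at least 5 recurrent regions, and Spen had the second highest number of regions and Rai1 shared the third. Spen had 2.04 regions per kb and Rai1 1.77, against a median of 2.04 and quartiles of 1.70 and 2.38. The median distance between summits, 516 and 454 bases, stood beside a median of 528 with quartiles of 421 and 653. Peaks covered 47.0% of the Spen run and 62.4% of the Rai1 run, against a median of 55.0%. The median pileup of the run was 23.2 tags in Spen and 28.7 in Rai1, against 25.9, and the median background 3.52 and 4.89 tags, against 4.94.

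The other 3 runs with at least 9 regions differed from these in span or input. The run at chr10:79773842-79780727 had 11 regions over 6886 bases and that at chr15:76005927-76012314 had 9 over 6388 bases with 83.2% covered. The run at chr2:121125984-121132761 had 9 regions over 6778 bases, with a median background of 21.2 tags and a median fold of 2.35. The median folds of Spen and Rai1, 5.40 and 5.31, lay below the 5.73 of the chromosome 15 run and above the 3.73 of the chromosome 10 run. These are descriptions of 1 run each and were not tested.

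**Figure D4:**
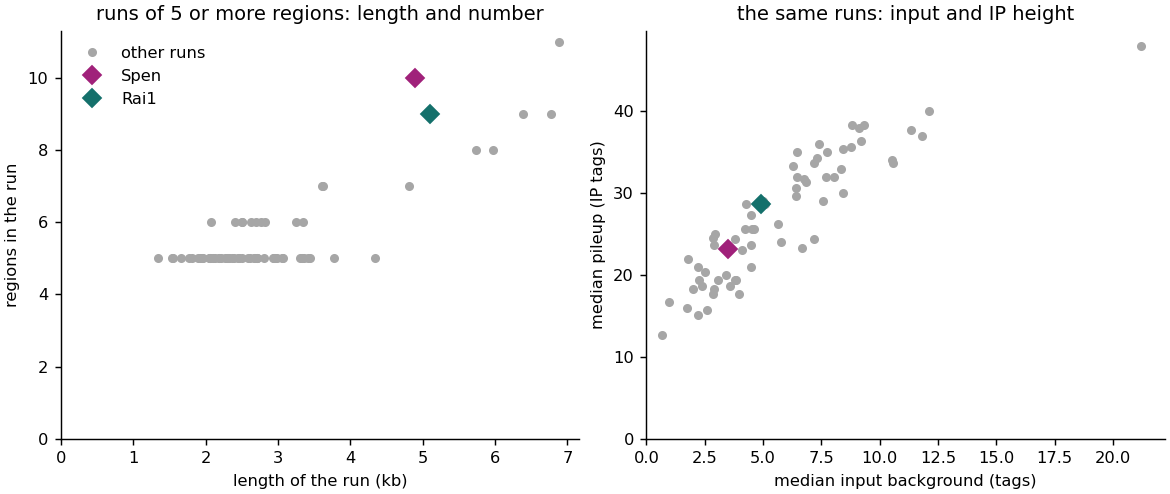
The 68 runs of at least 5 recurrent regions. Left: number of regions against the length of the run in kb. Right: median pileup in IP tags against the median input background in tags. Spen (10 regions, 4898 bases) and Rai1 (9 regions, 5096 bases) are diamonds and the other runs grey points; on the right both lie among the other runs.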

How the data were processed

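Per the file headers, the authors ran MACS 2.1.0.20151222 on each IP with its input at a q-value cutoff of 0.05, with tags extended to 50 bases and at most 1 tag kept per position. TopHat2 2.1.0 and the build mm9 are named in the submitters' processing notes. The deposited pileup is a coverage signal in IP tags, not scaled. The deposited fold is a ratio, pileup over local background, with 1 added to both. The −log10 q-value and −log10 p-value of each peak are also the authors'. The background was recovered from pileup and fold, and −log10 p-values recomputed from it differed from the deposited ones by at most 6.71e-05.

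Peaks of all 3 lists sharing 1 base or more were merged, and members were the peaks with a summit in the windows. Each region took its highest pileup and fold per list, and the summit and background of its tallest peak, so fold and background can come from different peaks. A recurrent region had a member peak in all 3 lists, and a run was a chain of recurrent regions with gaps of at most 1000 bases. Pileups carry 95% exact Poisson intervals, for counting error only. Merging was checked on simulated lists whose neighbouring sites lay too far apart to touch. That check does not cover crowded regions, where peaks of neighbouring sites can join. No label ties the replicates to separate animals, so SDs may be technical.

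Named regions were, per gene, the 3 highest and the lowest recurrent regions by mean pileup and by mean fold, the ends of the run, and the 3 highest outside it. The members, runs and lists were chosen with earlier results of these data known. Exons and letters came from GENCODE M21 (GRCm38), with no coordinate compared with mm9. The peak lists have no strand, and in that annotation the ends of Spen and Rai1 overlap Zbtb17 by 41 bases and Srebf1 by 109 bases on the other strand, and Rai1 overlaps the lincRNA 4930412M03Rik there by 3012 bases, so reads of these genes cannot be told apart. Scripts ran under Python 3.11.15 with pandas 2.3.3, scipy 1.17.1, numpy 2.4.6 and matplotlib 3.10.9.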

Additional observations from a re-analysis of the deposited data

How the results depend on the processing

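Counts, median pileup, median fold and summit distance of both genes were recomputed under 11 alternatives, 106 values in all. Of these, 84 moved by less than the SD over the lists, or by at most 1.5 times for counts. With gaps of at most 500 or 2000 bases all 20 values stayed within these limits. Among them, the counts of recurrent regions do not depend on the gap and could not move. The Spen run held 8 regions at 500 bases and 13 at 2000, against 10, and the Rai1 run 8 and 9, against 9. With a fold of at least 4, Spen had 11 recurrent regions, a median pileup of 26.3 tags and a summit distance of 600.2 bases, and Rai1 a pileup of 30.8 tags, a fold of 5.78 and a distance of 686 bases. With a −log10 q of at least 10, each gene had 2 recurrent regions and a longest run of 1, so there was no distance, with a fold of 6.26 and a pileup of 27.7 tags in Spen and a fold of 6.35 in Rai1. With a reciprocal overlap of 50%, Spen had 11 recurrent regions and a distance of 707 bases. Its distance was 600.2 bases with lists of equal length, 368 bases with regions of at least 2 lists, and 403 bases in a run of 18 with regions of any list, the last added after seeing the data. Without 1 list at a time, the Spen distance lay between 356.5 and 485.5 bases and its median fold between 4.98 and 5.40. The cause of these moves was not tested, except that stricter thresholds leave fewer peaks. Depth limits the order of single regions: a pileup of 31 tags has an interval of 21.1 to 44.0.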

Other observations

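Some segments were found in 1 or 2 lists only. In Spen, 3 of the 5 regions found in 2 lists were lacking in m6A IP 3 and 2 in m6A IP 2. Of the 4 found in 1 list, 3 came from m6A IP 2 and 1 from m6A IP 1. Their pileups were not low throughout. The single peak of m6A IP 1 at chr4:141032489-141032683, just beyond the end of the Spen run, had 25 tags over a background of 6.87 tags and a fold of 3.30. The regions found in 2 lists had mean pileups of 14.5 to 22.5 tags and mean folds of 3.10 to 5.32.

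In Rai1, the regions farthest from the run had the fewest tags and the highest folds. At chr11:59953769-59953860, m6A IP 1 and 2 had 10 and 11 tags with folds of 6.24 and 9.80, over backgrounds of 0.763 and 0.224 tags. Near it, chr11:59954412-59954470 had 10 tags and a fold of 8.95 in m6A IP 1 alone, over 0.229 tags. At the other end, chr11:60011766-60011905 was found in m6A IP 2 and 3 with 28 and 23 tags but folds of 3.50 and 3.35, over 7.28 and 6.16 tags, the highest mean background among the regions of the windows found in more than 1 list. These regions were chosen after their values were seen.

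The edge of the Spen window cut through a recurrent segment. At chr4:141022972-141023087 the summit of m6A IP 2, at 141023048, lay 48 bases inside the window with 22 tags and a fold of 4.67, and so counted as a region of 1 list. The overlapping peaks of m6A IP 1 and 3, with 19 and 17 tags, had summits 12 and 22 bases outside it. On the far side of the window the nearest outside summits were 7201, 7350 and 7342 bases away, and at the nearer edge of Rai1 they were 7686, 7686 and 7682 bases away. No other region was cut by an edge.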
